A study of Homo sapiens with 10 samples.

Results

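The cadherin family on these arrays was taken as the protein-coding genes named CDH followed by a digit, CDHR, PCDH, DSC1 to DSC3 and DSG1 to DSG4 in the probe annotation, without genes on chromosome 16. This gave 43 genes out of 14884 named on the array, each read through its brightest probe set (highest average of the 10 arrays). RNA came from 5 untreated lines of HCT116, which is a cell line from a human colorectal carcinoma. They are a wild-type line (WT), the ORC1 mutant lines ORC1B14 and ORC1BP32, and the ORC2 mutant lines ORC2B2 and ORC2BP8, with 2 arrays a line and 10 in all. ORC1 and ORC2 are subunits of the complex that marks origins of DNA replication. The labels give neither the kind of mutation nor whether a line is 1 clone, and they call the 2 arrays of a line biological replicates without saying what was replicated (a culture, a passage or an extraction). The tests therefore rest on the spread between these arrays, part of which may be technical. Values are log2 units, a base read from their range.

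Cadherins are calcium-dependent adhesion proteins whose extracellular repeats bind those of a neighbouring cell. Desmocollins (DSC) and desmogleins (DSG) form the adhesive core of desmosomes, the junctions that tie the keratin filaments of epithelial cells together through plakoglobin, plakophilins and desmoplakin. Protocadherins are a large branch best known from the nervous system, and the cadherin-related CDHR2 and CDHR5 link the microvilli of the intestinal brush border. The family had 7 desmosomal cadherins, 13 unclustered and 16 clustered beta protocadherins, 2 CDH genes and 5 CDHR genes. Alpha and gamma protocadherins and all other CDH genes were not analysed here.

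Genes were tested if they reached the median of the array on at least 2 arrays. Of the 43 family genes, 13 met this and 30 did not. The tested genes were DSC2, DSC3, DSG2, PCDH1, PCDH7, PCDH10, PCDH17, CDH23, CDH26, CDHR1, CDHR2, CDHR3 and CDHR5. On all 10 arrays 8 of them reached it. CDH23 was just inside, on 2 arrays, and PCDH8, with values from 3.35 to 4.04, was just outside, on 1 array. The remaining 29 reached the median on 0 arrays, among them all 16 beta protocadherins, whose values ran from 2.15 to 3.85. Over the untested genes whose level is given here, values ran from 1.81 to 4.04, and the widest range of line means was 0.68, for PCDHB12. PCDH11Y was untested too and its level is not given.

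**Figure D1:**
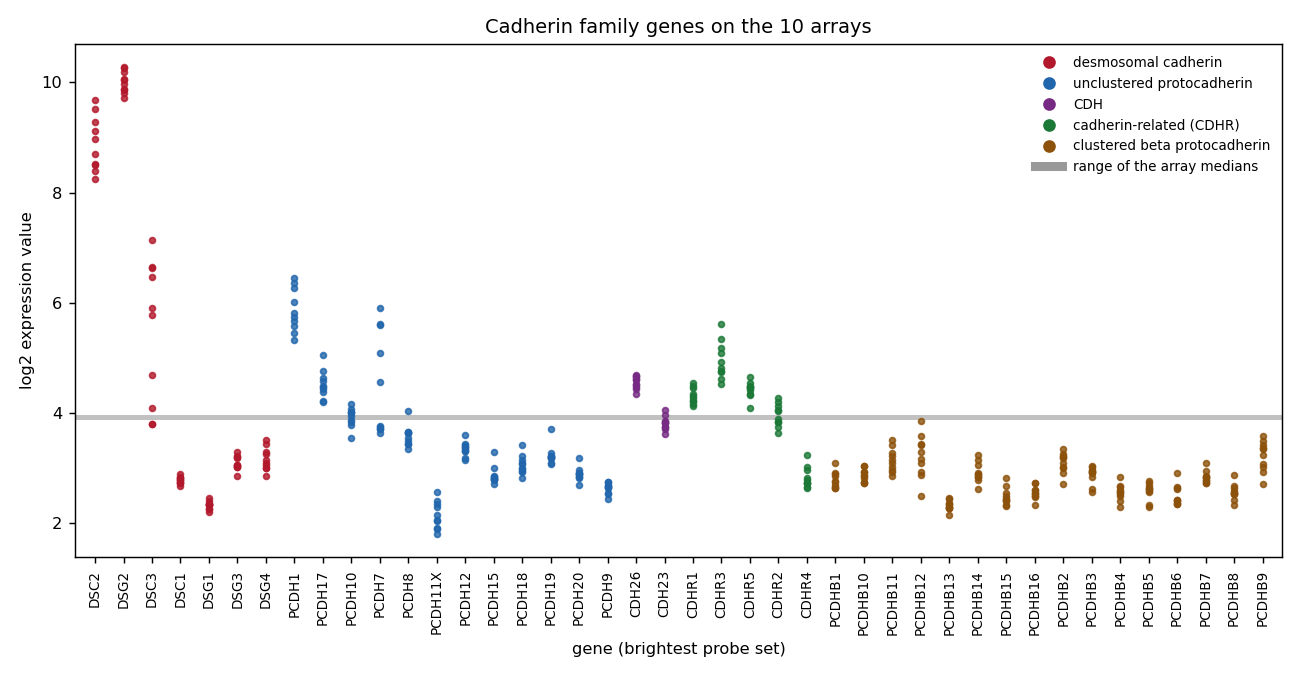
Log2 expression value (vertical axis) of 42 cadherin family genes (horizontal axis, coloured by class) on the 10 arrays, 1 point per array, with the range of the array medians as a grey band. Heights of different genes come from different probe sets and are not comparable. DSC3 and PCDH7 spread across the band, and the beta protocadherins lie below it.

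Array medians lay between 3.87 and 3.96, and in every line replicate 1 had the higher median. Correlations between arrays of a line lay between 0.979 and 0.984. Those between arrays of different lines lay between 0.968 and 0.989, so replicates were not always the closest arrays. Of 14 markers of colorectal epithelium, 12 were named on the array and 11 lay at or above the median on all 10 arrays, EPCAM, KRT8, KRT18 and CDX2 among them, while LGR5 did so on 0 arrays. Their summed level, as log2, ranged from 12.19 in ORC2B2 to 12.75 in ORC1B14. Unlogged values were summed, so the brightest genes weigh most. In ORC1B14, KRT18 stood at 1.17 and KRT19 at 0.82 against WT (limma adjusted p = 0.0566 and 0.106). There 8 of the tested markers stood above 0 and 3 below. KRT20, a keratin of differentiated colon epithelium, rose by 1.99 in ORC2B2 (limma adjusted p = 0.0322), where 0.12% of all genes tested were called higher. It was the single call among these markers against WT. Of the 11 tested, 6 stood above 0 in ORC2B2, among them KRT19 at 0.58 (limma adjusted p = 0.295). The 5 below 0 included the tight junction genes CLDN7 at -1.17 (limma adjusted p = 0.179) and CLDN4 at -0.37, with EPCAM and KRT8 at -0.31. The fibroblast markers DCN and LUM and the blood markers CD14 and LYZ reached the median on 0 arrays, and THY1 on 10. Of 5 neural markers 3 were tested, with a summed level of 6.66 to 7.38. MAP2 fell by 1.24 in ORC2BP8 (limma adjusted p = 0.0429), where 0.685% of all genes tested were called lower. The other tested neural markers there, GFAP at 0.34 and SOX10 at -0.09, had no call (limma adjusted p = 0.449 and 0.886). Of 5 endothelial markers 1, ERG, was tested, and their summed level ran from 5.69 to 5.86. The levels of ORC1 and ORC2 were not analysed here, so the lines are named by their labels alone. Fewer cells of a kind and less RNA per cell cannot be told apart in such samples.

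Each mutant line was compared with WT to ask which family genes differ between them. In such a comparison the mutation and other differences between the lines cannot be told apart. DSC3, a desmocollin of stratified epithelia, and PCDH7, a protocadherin, were called lower in ORC1B14 and ORC2B2. PCDH7 also stood at -2.00 in ORC1BP32, where it missed the threshold (limma adjusted p = 0.074). No family gene rose in any line by limma. In ORC1B14, 2 of 13 tested family genes were called, both lower, where 0.583% of all genes tested were called and 0.398% were called lower. In ORC2B2, 2 were called, both lower, against 0.333% and 0.213%. In ORC1BP32 and ORC2BP8, 0 were called by limma, against 0.0185% and 0.935%. At an unadjusted p under 0.05, 3 family genes were lower in ORC1BP32 (4.82% of all genes tested) and 1 in ORC2BP8 (7.15%). DSC3 and PCDH7 passed the filter through the arrays where they are high, so these counts are a description of the family and no support for it as a group. The 4 comparisons share the WT arrays. The median difference of the 13 genes was 0.08, 0.09, 0.05 and 0.06 in ORC1B14, ORC1BP32, ORC2B2 and ORC2BP8, beside 0.04, 0.04, 0.03 and 0.03 over all genes tested.

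DSC3 (probe set 16854466, chromosome 18) and PCDH7 (probe set 16965798, chromosome 4) are the genes that this pattern turns on, so the 250 bases before their first listed transcript start are shown, from RefSeq on GRCh38.p14, 5′ to 3′ on the gene's strand. Capitals mark CpG dinucleotides, the sites at which promoters can be methylated. Methylation was not measured here. The DSC3 window is chr18:31042743-31042992 on the minus strand, and the PCDH7 window is chr4:30720119-30720368 on the plus strand.
DSC3: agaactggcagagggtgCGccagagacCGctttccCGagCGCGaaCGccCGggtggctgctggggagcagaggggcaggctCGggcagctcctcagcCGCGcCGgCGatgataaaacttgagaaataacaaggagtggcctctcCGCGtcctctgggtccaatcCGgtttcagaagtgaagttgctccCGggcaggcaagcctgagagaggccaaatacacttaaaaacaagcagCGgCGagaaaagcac
PCDH7: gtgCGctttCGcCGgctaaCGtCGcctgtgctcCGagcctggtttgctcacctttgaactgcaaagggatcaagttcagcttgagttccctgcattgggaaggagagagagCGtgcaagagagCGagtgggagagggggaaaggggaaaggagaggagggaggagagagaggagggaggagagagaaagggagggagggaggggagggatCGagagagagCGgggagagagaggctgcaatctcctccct
The DSC3 window held 18 CpG and the PCDH7 window 10, beside a median of 11 over 35116 promoters of the same length, of which 36.8% and 52.2% held at least as many. The E-box CACCTG, the letters bound by SNAI and ZEB repressors, was searched on both strands and was present in 17.5% of promoters. Neither window held it. DSG2 held 2 copies, and of the windows at DSC2's 2 listed starts 1 held a copy. The grainyhead letters AACNGGTT were searched on the gene's strand only. On that strand they were in 0.79% of promoters and in none of the windows of DSC3, PCDH7, DSC2 and DSG2.

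DSC3 values were 6.64 and 7.14 in WT, 3.80 and 3.81 in ORC1B14, 5.90 and 5.78 in ORC1BP32, 4.10 and 4.69 in ORC2B2, and 6.64 and 6.46 in ORC2BP8 (replicates 1 and 2). ORC1B14 and ORC2B2 were low on both arrays, ORC1BP32 lay between them and WT, and ORC2BP8 lay just under the WT arrays. DSC3 fell by 3.09 on the log2 scale in ORC1B14, an 8.49-fold difference (SE 0.24, limma adjusted p = 0.00083). It fell by 2.50 in ORC2B2, a 5.64-fold difference (SE 0.24, limma adjusted p = 0.00472). Both ORC1B14 values lie below the medians of their arrays, so the size of that change is uncertain. The difference was -1.05 in ORC1BP32 (limma adjusted p = 0.209), with a 95% interval, not adjusted for the number of genes tested, from -1.59 to -0.51. In ORC2BP8 it was -0.34 (limma adjusted p = 0.573), with an interval from -0.88 to 0.20. The calls in ORC1B14 and ORC2B2 held without each of the 10 arrays in turn, with differences of -3.34 to -2.84 and of -2.79 to -2.20. Within replicate 1 the differences were -2.84 in ORC1B14 and -2.54 in ORC2B2, and within replicate 2 they were -3.33 and -2.45.

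**Figure D2:**
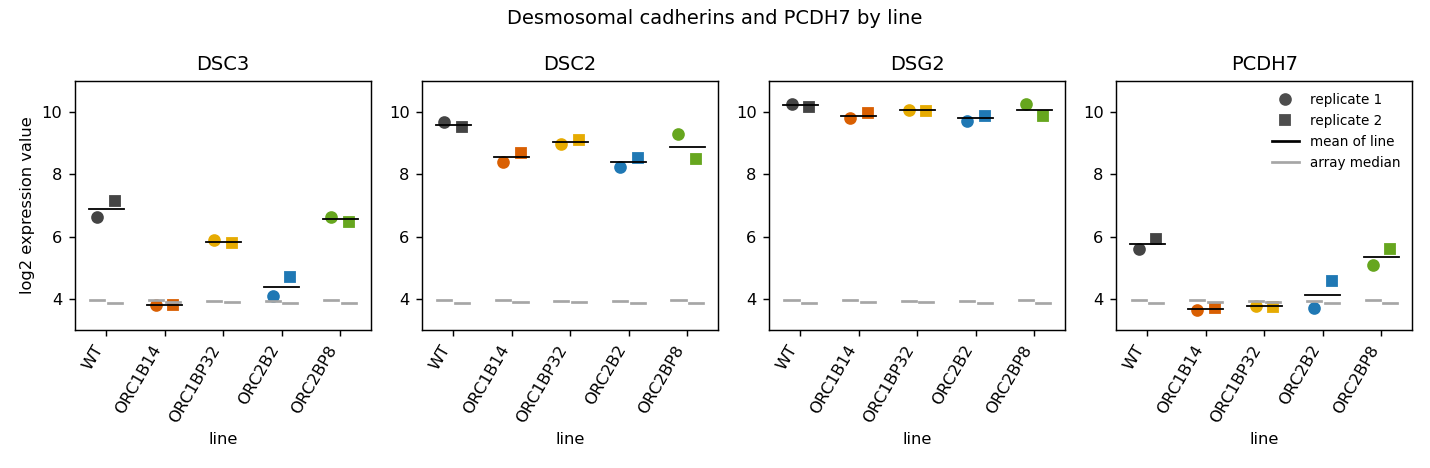
Log2 expression value (vertical axis, the same in each panel) of DSC3, DSC2, DSG2 and PCDH7 by line. Circles are replicate 1, squares replicate 2, black lines the mean of a line and grey dashes the median of each array. DSC3 reaches the grey dashes in ORC1B14, and PCDH7 in both ORC1 lines and in ORC2B2 replicate 1, while DSC2 and DSG2 stay far above them.

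The lines of 1 mutated gene were then set against each other. DSC3 was lower in ORC1B14 than in ORC1BP32, a 4.10-fold difference (-2.04, SE 0.24, limma adjusted p = 0.0254), where 0.0185% of all genes tested were called and 0.00926% called lower. It was lower in ORC2B2 than in ORC2BP8, a 4.46-fold difference (-2.16, SE 0.24, limma adjusted p = 0.00777), where 0.222% were called and 0.0834% called lower. In both pairs DSC3 was the single family gene called. The ORC1 lines as a pair against the ORC2 lines gave -0.65 for DSC3 and -1.03 for PCDH7 (limma adjusted p = 0.316 and 0.146), and 0 family genes were called there by limma, against 0.0463%, with 2 lower at an unadjusted p under 0.05 (2.83% of all genes tested). Without ORC2B2 replicate 1 PCDH7 passed the threshold there (-1.24, limma adjusted p = 0.0383). The DSC3 difference between the ORC1 lines lost its call without either array of ORC1B14, ORC1BP32 or ORC2BP8, at -2.10 to -1.97 over the 10 omissions (highest adjusted p 0.326). That between the ORC2 lines lost it without either ORC2BP8 array (highest adjusted p 0.0734). With the arrays of only the 2 lines in the fit, neither was called (adjusted p 0.0571 and 0.122).

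PCDH7 values were 5.60 and 5.91 in WT, 3.64 and 3.72 in ORC1B14, 3.77 and 3.74 in ORC1BP32, 3.70 and 4.56 in ORC2B2, and 5.09 and 5.62 in ORC2BP8. Both ORC1 lines were low on both arrays, ORC2B2 was low with its replicates apart, and ORC2BP8 overlapped WT. PCDH7 fell by 2.08 in ORC1B14, a 4.22-fold difference (SE 0.28, limma adjusted p = 0.0225). It fell by 1.62 in ORC2B2, a 3.08-fold difference (SE 0.28, limma adjusted p = 0.0456). Both ORC1B14 values and that of ORC2B2 replicate 1 lie below the medians of their arrays, so the size of both changes is uncertain. In ORC1BP32 the difference was -2.00, with an interval from -2.62 to -1.38, and missed the threshold (limma adjusted p = 0.074). The ORC1 lines differed from each other by -0.08, with an interval from -0.69 to 0.54. All 4 ORC1 values lie below the array medians, so a difference between these lines could be hidden there. In ORC2BP8 PCDH7 stood at -0.40 (limma adjusted p = 0.56), and ORC2B2 against ORC2BP8 gave -1.22 (limma adjusted p = 0.168). The ORC1B14 call was lost without either WT array or ORC1B14 replicate 1 (highest adjusted p 0.163). The ORC2B2 call was lost without any WT, ORC1B14 or ORC1BP32 array or ORC2B2 replicate 1, at -2.05 to -1.19 over the 10 omissions (highest adjusted p 0.268), and without the filter, after centring, after quantile normalization or with the arrays of only ORC2B2 and WT (highest adjusted p 0.111). In ORC1BP32 PCDH7 was called without either ORC2B2 array (adjusted p 0.0227 and 0.022) and with only its own and the WT arrays (0.00462).

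**Figure D3:**
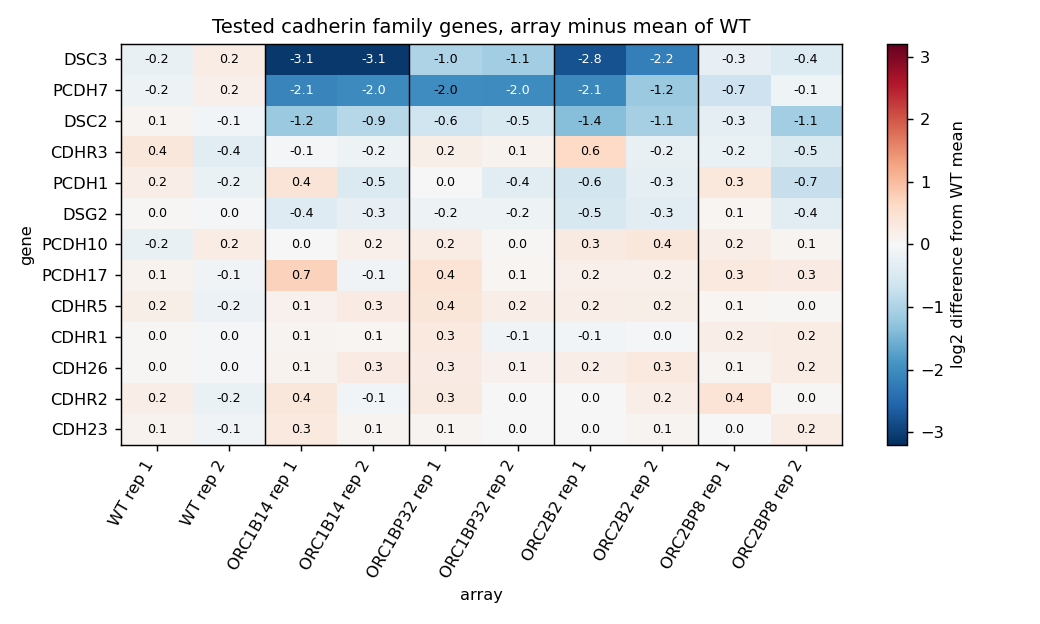
Difference of each array (columns, grouped by line) from the mean of the 2 WT arrays, in log2 units, for the 13 tested cadherin family genes (rows, ordered by the range of their line means). Blue is lower and red higher than WT, and cells print the difference. DSC3, PCDH7 and DSC2 carry the darkest cells, and the other 10 rows stay within 0.8 of the WT mean.

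DSC2, the desmocollin of simple epithelia, was lower on every mutant array than on both WT arrays. Its values (probe set 16854486) were 9.69 and 9.51 in WT, 8.40 and 8.70 in ORC1B14, 8.97 and 9.11 in ORC1BP32, 8.24 and 8.53 in ORC2B2, and 9.29 and 8.50 in ORC2BP8. ORC1B14 and ORC2B2 were the lowest lines for DSC2 as for DSC3, and the ORC2BP8 replicates lay 0.79 apart. Taking ORC1B14, ORC1BP32, ORC2B2 and ORC2BP8 in turn, it stood at -1.05, -0.56, -1.22 and -0.71 against WT (SE 0.25, limma adjusted p = 0.0933, 0.488, 0.0756 and 0.228). In the mean of the 4 mutant lines it stood at -0.88 (SE 0.20, limma adjusted p = 0.0589). Without ORC2BP8 replicate 1, DSC2 passed the threshold in ORC1B14, ORC2B2 and the mean of the mutant lines (adjusted p 0.0481, 0.0412 and 0.0213), and without ORC2BP8 replicate 2 in ORC1B14 and ORC2B2 (0.0465 and 0.0396). In the mean of the mutant lines it also passed after quantile normalization (0.0471) and with genes at or above the median on all 10 arrays (0.0498).

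In that mean, 2 of 13 family genes were called, both lower, against 1.02% of all genes tested called and 0.602% called lower. They were DSC3 at -1.74 (SE 0.19, limma adjusted p = 0.0107) and PCDH7 at -1.53 (SE 0.22, limma adjusted p = 0.0139). The SE of this mean, as of ORC1 against ORC2 lines, comes from arrays within lines and leaves out the spread between lines. That spread ran from -3.09 to -0.34 for DSC3 and from -2.08 to -0.40 for PCDH7. These calls therefore describe the 4 lines and not mutant lines in general. DSC3 lost this call without WT replicate 2 (adjusted p 0.118), and PCDH7 without either WT array (highest adjusted p 0.171). Every mutant array lay below both WT arrays for 2 family genes, DSC3 and DSC2, where 6.93% of all genes tested did so, and above them for 1, CDH26, where 7.96% did so. The DSC3 gap there was under 0.01, between WT and ORC2BP8 replicate 1.

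DSG2, the desmoglein of simple epithelia, showed smaller differences. Its values (probe set 16851768) were 10.26 and 10.18 in WT, 9.81 and 9.96 in ORC1B14, 10.06 and 10.05 in ORC1BP32, 9.71 and 9.88 in ORC2B2, and 10.27 and 9.86 in ORC2BP8. ORC1B14, ORC1BP32 and ORC2B2 lay below both WT arrays, and ORC2BP8 overlapped WT. Of all genes tested, 20.2%, 18.3% and 19.9% lay below both WT arrays in those 3 lines. Against WT DSG2 stood at -0.33, -0.16, -0.42 and -0.15 in ORC1B14, ORC1BP32, ORC2B2 and ORC2BP8, with no call (SE 0.17, limma adjusted p = 0.351, 0.812, 0.369 and 0.748). In ORC2B2 the 95% interval, not adjusted for the number of genes tested, ran from -0.80 to -0.04. In ORC1B14, ORC1BP32 and ORC2BP8 it ran from -0.71 to 0.05, from -0.54 to 0.215 and from -0.53 to 0.23. The other desmosomal cadherins, DSC1, DSG1, DSG3 and DSG4, known mainly from skin and other stratified epithelia, reached the median on 0 arrays. DSC1 values were 2.89 and 2.78 in WT, 2.68 and 2.73 in ORC1B14, 2.79 and 2.82 in ORC1BP32, 2.85 and 2.81 in ORC2B2, and 2.73 and 2.74 in ORC2BP8, all below the array medians. The others ran from 2.21 to 2.45 for DSG1, 2.85 to 3.29 for DSG3 and 2.85 to 3.52 for DSG4.

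DSC3, DSC2 and DSG2 follow each other on chromosome 18 when only tested genes are counted, in the order of the RefSeq gene table. The 10 nearest tested genes on each side of DSC3, with DSC2 and DSG2 among them, had median differences from WT of -0.12, -0.13, -0.21 and 0.04 for ORC1B14, ORC1BP32, ORC2B2 and ORC2BP8. Without DSC2 and DSG2 the medians of the other 18 were -0.09, -0.10, -0.20 and 0.04. In ORC2B2, 16 of the 20 neighbours stood below 0, and 12, 13 and 9 did so in ORC1B14, ORC1BP32 and ORC2BP8. The lowest neighbour was ANKRD29, at -1.49, -1.54, -2.02 and -1.21 in ORC1B14, ORC1BP32, ORC2B2 and ORC2BP8, and 0 neighbours lay below DSC3 in ORC1B14 and in ORC2B2. Around PCDH7 the 20 neighbours had medians of -0.23, -0.06, -0.14 and -0.15, with 16, 16, 13 and 17 of them below 0. Over all genes tested the medians were 0.04, 0.04, 0.03 and 0.03. KLF3, a neighbour of PCDH7, stood at -0.60, -0.67, -1.16 and -0.94 and was called in 1 of the 4 lines. Of all genes tested, between 0.0185% (ORC1BP32) and 0.935% (ORC2BP8) were called in those lines. In ORC1B14, ORC1BP32 and ORC2B2, 0 neighbours lay below PCDH7. In ORC2BP8, 5 neighbours lay below DSC3 and 5 below PCDH7. Copy number was not measured, and its part in these differences was not tested.

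**Figure D4:**
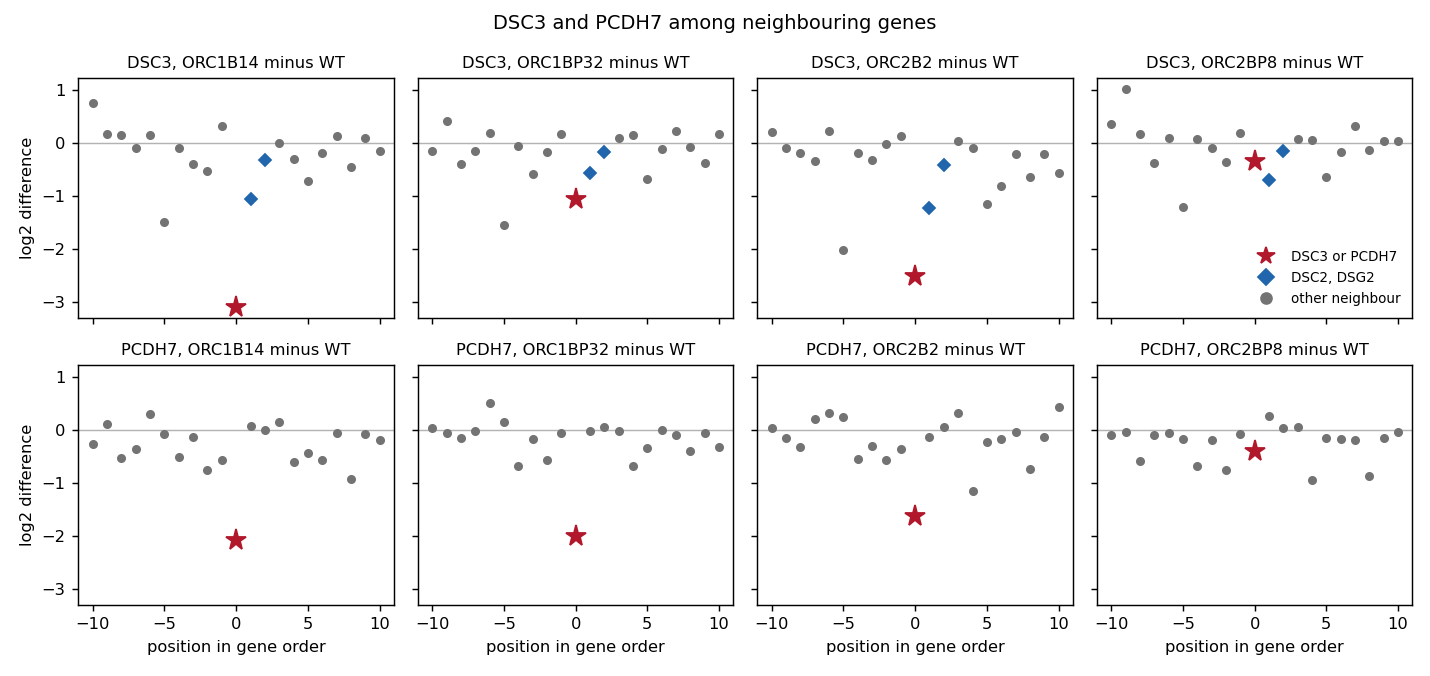
Log2 difference from WT (vertical axis) of DSC3 (top row) and PCDH7 (bottom row), drawn as stars, and of the 10 nearest tested genes on each side in gene order (horizontal axis), 1 column per mutant line. Blue diamonds are DSC2 and DSG2. The star lies below every neighbour for DSC3 in ORC1B14 and ORC2B2 and for PCDH7 in those lines and in ORC1BP32.

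The cytoplasmic side of the desmosome was read from a list of partner genes. Of 9 plaque genes 7 were tested, and 0 were called in any line against WT by limma (1 lower at an unadjusted p under 0.05 in ORC2B2 and in ORC2BP8, where 5.87% and 7.15% of all genes tested were). Their median difference was 0.05, -0.04, -0.03 and 0.04 in ORC1B14, ORC1BP32, ORC2B2 and ORC2BP8, close to the medians over all genes given above. DSP, desmoplakin, which anchors keratin filaments, had values of 10.64 and 10.44 in WT, 10.19 and 10.47 in ORC1B14, 10.42 and 10.58 in ORC1BP32, 9.98 and 10.37 in ORC2B2, and 10.70 and 10.31 in ORC2BP8. The DSP arrays of WT overlapped those of every line but ORC2B2, which lay below them, as did 19.9% of all genes tested. PKP2, a plakophilin, had values of 8.61 and 8.72 in WT, 8.64 and 8.49 in ORC1B14, 8.65 and 8.38 in ORC1BP32, 8.82 and 8.46 in ORC2B2, and 8.14 and 8.56 in ORC2BP8, and its difference lay between -0.31 (ORC2BP8) and -0.03 (ORC2B2) against WT. The values of PKP3, another plakophilin, were 6.56 and 6.41 in WT, 7.07 and 6.73 in ORC1B14, 6.94 and 6.50 in ORC1BP32, 6.25 and 6.46 in ORC2B2, and 6.78 and 6.58 in ORC2BP8, with differences between -0.13 (ORC2B2) and 0.41 (ORC1B14). PPL, periplakin, was the plaque gene lower at an unadjusted p, at -0.83 for ORC2B2 (limma adjusted p = 0.184) and -0.88 for ORC2BP8 (limma adjusted p = 0.13), with an SE of 0.24. JUP, plakoglobin, which binds desmosomal and classical cadherin tails, had values of 9.72 and 9.76 in WT, 10.09 and 9.49 in ORC1B14, 9.998 and 9.68 in ORC1BP32, 9.29 and 9.67 in ORC2B2, and 9.79 and 9.54 in ORC2BP8. Its difference from WT lay between -0.26 (ORC2B2) and 0.10 (ORC1BP32). It was 1 of 3 tested genes of the 12 in the catenin list, of which 0 were called by limma or reached an unadjusted p under 0.05. CTNNB1, CTNNA1 and CTNND1 were not analysed here.

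**Figure D5:**
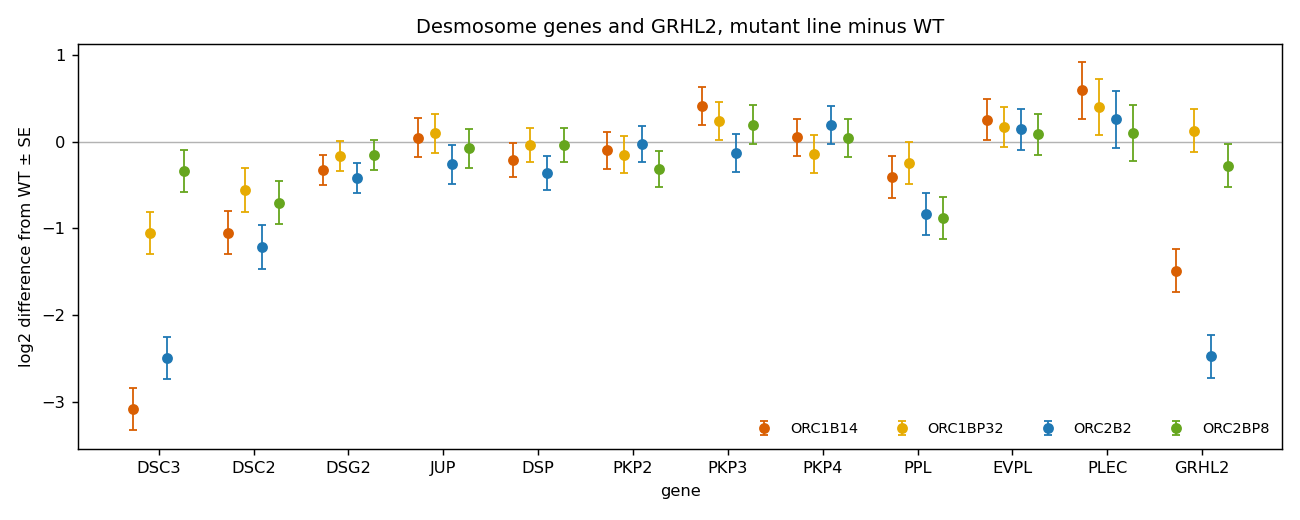
Log2 difference from WT with its standard error (vertical axis) in the 4 mutant lines (colours) for the 3 tested desmosomal cadherins, JUP, 7 plaque genes and GRHL2. DSC3 and GRHL2 show the lowest points, both in ORC1B14 and ORC2B2, while the plaque genes stay within 0.9 of 0.

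Of 15 transcription factors known to regulate cadherin and junction genes, 10 were tested. GRHL2, a grainyhead factor that maintains epithelial junction genes, was the 1 called against WT, lower in ORC1B14 and ORC2B2, where 0.398% and 0.213% of all genes tested were called lower. At an unadjusted p under 0.05, 4 regulators were lower in ORC2B2 (5.87% of all genes tested), namely GRHL2, OVOL1 (-0.81), KLF4 (-0.58) and KLF5 (-0.58). KLF5 was also lower at that p in ORC2BP8 (-0.64, 7.15% of all genes tested). In ORC1BP32, 2 were higher (5.28%), SNAI2 (0.70) and OVOL1 (0.54). In ORC1B14, OVOL2 was higher (0.47, 8.15%) and GRHL2 lower (8.81%). In the ORC1 lines against the ORC2 lines 5 of the 10 were higher at an unadjusted p under 0.05, beside 4.13% of all genes tested. They were GRHL2 (0.69), OVOL1 (0.50), GRHL1 (0.48), KLF5 (0.41) and KLF4 (0.40). Of these, 0 were called (lowest limma adjusted p 0.278, GRHL2), where 0.0278% of all genes tested were called higher. Against WT, OVOL1 stood at -0.81 in ORC2B2 and at 0.09 in ORC2BP8. GRHL2 values were 7.74 and 7.27 in WT, 6.22 and 5.80 in ORC1B14, and 7.72 and 7.53 in ORC1BP32. They were 4.86 and 5.19 in ORC2B2, and 7.42 and 7.02 in ORC2BP8. ORC1B14 and ORC2B2 were low on both arrays, and the other mutant lines overlapped WT. It fell by 1.49 in ORC1B14 and by 2.48 in ORC2B2 (SE 0.25, limma adjusted p = 0.0384 and 0.00472), and was lower in ORC2B2 than in ORC2BP8 (-2.20, adjusted p = 0.00777). In the mean of the mutant lines it stood at -1.03 (limma adjusted p = 0.0399), and that call was lost without any of the WT, ORC1BP32 or ORC2B2 arrays or ORC2BP8 replicate 2 (highest adjusted p 0.335), and without the filter (0.0503). Between the ORC1 lines it stood at -1.62 (limma adjusted p = 0.104). The ORC1B14 call was lost without any WT, ORC1B14 or ORC1BP32 array (highest adjusted p 0.191), that between the ORC2 lines without replicate 1 of either (highest adjusted p 0.06), while that in ORC2B2 held without each array. With the arrays of only the lines compared, the ORC1B14 call and that between the ORC2 lines were lost (adjusted p 0.059 and 0.0903). Whether GRHL2 has a part in the DSC3 level was not tested. The cadherin repressors SNAI1, SNAI2, SNAI3 and ZEB1 were tested with no call, and ZEB2, TWIST1 and TWIST2 reached the median on 0 arrays.

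Among the other tested protocadherins, PCDH1, an epithelial protocadherin (probe set 17001005), had values of 6.27 and 5.82 in WT, 6.44 and 5.57 in ORC1B14, 6.02 and 5.68 in ORC1BP32, 5.45 and 5.74 in ORC2B2, and 6.37 and 5.32 in ORC2BP8. The replicates of ORC2BP8 lay 1.05 apart and those of ORC1B14 0.87, wider than any difference from WT (lowest -0.45, ORC2B2, SE 0.37, limma adjusted p = 0.715). PCDH17 values were 4.44 and 4.21 in WT, 5.06 and 4.20 in ORC1B14, 4.76 and 4.38 in ORC1BP32, 4.49 and 4.48 in ORC2B2, and 4.64 and 4.58 in ORC2BP8. Every mutant line but ORC2B2 and ORC2BP8 overlapped WT, and it stood at 0.16 to 0.31 above WT in the 4 lines, with no call (SE 0.26). Of all genes tested, 24.5% lay above both WT arrays in ORC2B2 and 24.5% in ORC2BP8. PCDH17 has 2 probe sets, and the dimmer one lay between 3.46 and 4.17. PCDH10 values were 3.54 and 4.02 in WT, 3.79 and 3.94 in ORC1B14, 4.01 and 3.83 in ORC1BP32, 4.08 and 4.16 in ORC2B2, and 4.003 and 3.88 in ORC2BP8. They lay around the array medians, with ORC2B2 alone above both WT arrays (24.5% of all genes tested). PCDH10 stood at 0.08 to 0.33 from WT (SE 0.20, lowest limma adjusted p 0.586, in ORC2B2). PCDH9, also with 2 probe sets, PCDH11X, PCDH12, PCDH15, PCDH18, PCDH19 and PCDH20 reached the median on 0 arrays.

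The CDH and CDHR genes gave no call in any comparison. CDHR3, known as a receptor of a rhinovirus on airway cells (probe set 17050081), had values of 5.35 and 4.61 in WT, 4.92 and 4.81 in ORC1B14, 5.17 and 5.09 in ORC1BP32, 5.61 and 4.74 in ORC2B2, and 4.76 and 4.52 in ORC2BP8. Its replicates lay up to 0.87 apart, in ORC2B2, and every mutant line overlapped WT, with its widest difference between the ORC2 lines (0.54, SE 0.30, limma adjusted p = 1). CDHR2 and CDHR5 of the brush border lay between 3.63 and 4.27 and between 4.10 and 4.65. CDHR1, a photoreceptor cadherin, lay between 4.12 and 4.55, and CDH23, of hair-cell tip links, between 3.62 and 4.05. CDH26 had values of 4.44 and 4.34 in WT, 4.50 and 4.66 in ORC1B14, 4.66 and 4.52 in ORC1BP32, 4.60 and 4.69 in ORC2B2, and 4.48 and 4.62 in ORC2BP8. It was above both WT arrays on every mutant array by a narrow margin, at 0.16 to 0.25 from WT with an SE of 0.18 and no call, and was described after its values were seen. The 2 CDH genes had a median difference of 0.13 to 0.19 and the 4 tested CDHR genes one of 0.10 to 0.15 across the mutant lines. CDHR4 reached the median on 0 arrays.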

How the data were processed

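The table that the authors deposited holds log2 values of 53617 probe sets on 10 arrays. Affymetrix Expression Console is named, with no version, per the submitters' processing notes. The log base is read from the values, and the sources used here give neither normalization method nor build. The values were used without further scaling. Arrays give no read depth, and their number limits the precision.

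Platform annotation named 16098 probe sets, all of which matched RefSeq gene IDs. Genes were their brightest probe set at or above the array median on at least 2 arrays (10797 genes). Differences were fitted in R 4.3.3 with limma 3.58.1 (lmFit on 5 line means, eBayes with an intensity trend, 5 residual degrees of freedom and 5.83 from the prior). Two-sided p-values were adjusted with the Benjamini-Hochberg method across the genes tested, with a threshold of 0.05, in 8 comparisons. The 95% intervals are per gene and were not adjusted. The code was tested on simulated data. Left out of the family were 3 pseudogene and 2 antisense probe sets. RefSeq promoters were found for 37 of the 43 genes. Family members, partner and marker lists were chosen with earlier results of these data known. Named in full were family genes with a call, the 8 tested ones with the widest range of line means, the desmosomal cadherins, PCDH1, PCDH7 and preset partners. Alternatives were other scaling, filters, probe set rule, trend, arrays in the fit, the replicate block and leaving out each array.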

Additional observations from a re-analysis of the deposited data

Results flagged for a closer look

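DSC3 is listed for its difference between lines with the same mutated gene, the same values that the report gives. ORC1B14 minus ORC1BP32 was -2.04, and ORC2B2 minus ORC2BP8 was -2.16 (SE 0.24, limma adjusted p = 0.0254 and 0.00777). With the arrays of only the compared lines neither was called (adjusted p 0.0571 and 0.122), and leaving out 1 array ended the first call for either array of ORC1B14, ORC1BP32 or ORC2BP8 (highest adjusted p 0.326) and the second for either ORC2BP8 array (0.0734). In each pair both arrays of the lower line lay below both arrays of the other. No group had enough arrays for a check of single outlying arrays.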

How the results depend on the processing

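The number of family genes called changed as follows. Leaving out each array in turn gave 1 to 3 in ORC1B14, 0 to 1 in ORC1BP32, 1 to 3 in ORC2B2, 0 to 3 in the mean of the mutant lines, and 0 to 1 between ORC1 and ORC2 lines, between the ORC1 lines and between the ORC2 lines. A line left with 1 array is assumed to vary like the others. Requiring the array median on all 10 arrays leaves DSC3 and PCDH7 untested, so 0 were called in ORC1B14, ORC2B2 and between the lines of each gene, and 1 (DSC2) in the mean. Quantile normalization, centring, no filter and a fit of only the contrast's arrays each gave 1 in ORC2B2 (DSC3). That last fit also gave 1 in ORC1BP32 (PCDH7) and 0 in each pair of lines, and was not run for the mean of 4 lines, which uses all arrays. With the replicate number as a block, 1 was called in ORC1BP32 and between ORC1 and ORC2 lines (PCDH7, adjusted p 0.00929 and 0.0226) and 2 between the ORC2 lines (DSC3 and PCDH7, the latter at 0.0353). GRHL2 was called between the ORC1 lines (0.0199), and DSC2 passed the threshold in ORC1B14, ORC2B2 and the mean of the mutant lines (adjusted p 0.0385, 0.0301 and 0.0243). The deviations of same-numbered arrays correlated at 0.081 to 0.568 over the 10 pairs of lines, and no label says what a number shares. Of the 45 family and partner genes, none with a call in either fit changed direction under any alternative run. Levels near the array median limit the size of low values.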

Other observations

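Other cadherin superfamily genes and proteases that cut cadherins gave no call against WT by limma. Of 13 superfamily genes 7 were tested, and at an unadjusted p under 0.05 1 was higher and 1 lower in ORC1B14 (8.15% and 8.81% of all genes tested) and 1 higher in ORC2B2 (5.82%). FAT4, an atypical cadherin, stood at 0.80 in ORC1B14 and 0.54 in ORC2B2 (SE 0.21, limma adjusted p = 0.111 and 0.34), and at -0.0047 and -0.29 in ORC1BP32 and ORC2BP8. Of 7 protease genes 5 were tested, and at an unadjusted p under 0.05 2 were lower in ORC1BP32, 2 in ORC2BP8, 1 in ORC1B14 and 0 in ORC2B2. Of all genes tested, 4.82%, 7.15%, 8.81% and 5.87% were lower at that p in those lines. ADAM17, a sheddase, stood at -0.52, -0.52, 0.01 and -0.44 in ORC1B14, ORC1BP32, ORC2B2 and ORC2BP8 (SE 0.19, lowest limma adjusted p 0.205).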
